A study of Mus musculus with 8 samples.

Results

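The genes Runx1, Runx2, Runx3, Ets1, Ets2, Etv4, Etv5 and Etv6, which encode transcription factors of the RUNX and ETS families, were examined for chromatin loops in FOXA1 and HNF4G Hi-ChIP of mouse pancreatic cancer cells. These 8 genes were chosen by name, with earlier results of these data known. A loop was taken as belonging to a gene when 1 of its anchors lay within 2 kb of an annotated start of the gene (a promoter loop) or when both anchors lay inside the gene body (a body loop). In all, 415 of the 249200 distinct loops met this rule, of which 265 were promoter loops and 150 were body loops only. Their share of the FOXA1 lists was 0.191% (liver mets) and 0.197% (tumor), and that of the HNF4G lists was 0.196% and 0.190%.

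Hi-ChIP ligates DNA ends that lie close together in the nucleus and then pulls down the fragments bound by a chosen protein, so that each loop is a pair of genomic anchors on 1 chromosome joined in the presence of that protein. The 8 samples formed 4 groups of 2 replicates, FOXA1 or HNF4G Hi-ChIP in a cell line from a KPC primary tumor and in an isogenic line from matched liver metastases (liver mets), and the lines were compared for the looping found with each factor. KPC mice are engineered to develop pancreatic cancer. The labels of all samples give the genotype as WT and the treatment as untreated, and the cells were grown in DMEM with serum. Each condition was represented by 1 line, so line and condition cannot be told apart, and the lines were cultured cells with no host tissue.

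Each group had 1 loop list covering both replicates. No value per replicate was therefore at hand, no test between groups was possible, and every 95% interval below covers counting error only. The FOXA1 lists numbered 125623 (liver mets) and 104136 (tumor) loops, the HNF4G lists 78098 and 76323, and read depth is unknown. Loops shared anchors and were not independent of each other. The value of a loop, read as the −log10 of an adjusted p, was used to rank loops within a list, and because each list has its own long runs of tied values, equal values in separate lists are not equal evidence. At the promoters of marker genes, all 6 epithelial and ductal markers had loops (Krt19 had 61, 42, 27 and 30 in the order of lists just given, which is kept throughout), none of the 4 leukocyte and 3 acinar markers did, and endothelial markers had no promoter loop. Of the hepatocyte markers, Alb had no loop and Apoa1 had 6, 4, 5 and 1. A loop is not a measure of expression.

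RUNX proteins bind DNA through the Runt domain with their partner CBFB and act as activators or repressors in blood, bone and epithelial cells. ETS proteins bind a GGA core and are common endpoints of growth factor and MAPK signaling. FOXA1 is a forkhead factor, and HNF4G is a nuclear receptor of endodermal epithelia. Runx1 and Runx2 each have a distal and a proximal promoter that start different protein isoforms.

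Sequences were read from the RefSeq copy of GRCm38, the assembly that mm10 names, because loops of the genes start or end in them. The first set is the 150 bases before the outermost start inside the Runx1 distal promoter anchor (chr16:92826150-92826299) and the Runx1 proximal promoter anchor (chr16:92697329-92697478), both on the minus strand and written 5′ to 3′.
Runx1 distal promoter: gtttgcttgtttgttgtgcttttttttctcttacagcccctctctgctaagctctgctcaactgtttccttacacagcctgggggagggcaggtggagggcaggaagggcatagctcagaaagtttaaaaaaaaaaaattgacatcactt
Runx1 proximal promoter: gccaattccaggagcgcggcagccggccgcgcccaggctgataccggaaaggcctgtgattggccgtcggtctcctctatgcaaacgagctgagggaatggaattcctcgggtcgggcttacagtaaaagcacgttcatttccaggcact
The Runx1 proximal stretch was 59.3% G and C and held 12 CpG, and the Runx1 distal stretch was 44.7% and held 0 CpG. Neither held a match to the 4 letter strings searched on both strands, TGTTTAC (a forkhead core, as FOXA1 binds), CAAAGTCCA (an HNF4 site), TGTGGTT (the RUNX core) and CCGGAAG (an ETS core). Of the 6 genes with a RefSeq promoter window (300 bases around a start), the windows at the first starts of Runx1, Runx2 and Runx3 held TGTGGTT 2, 3 and 2 times, and 5.27% of all 32851 windows held it. The other windows of Runx1 (at the proximal promoter) and Runx3, and those of Etv6, Etv5 and Ets2, held it 0 times. The first starts of Runx2 and Runx3 lay 36768 and 20174 bp from the nearest anchor, so their windows were not in an anchor. Etv5 held TGTTTAC in the 300 bases around its first start and in the 150 bases before it (chr16:22439720-22439869, minus strand, the match in capitals on the reverse strand), and this string occurred in 3.65% of all windows.
Etv5 promoter: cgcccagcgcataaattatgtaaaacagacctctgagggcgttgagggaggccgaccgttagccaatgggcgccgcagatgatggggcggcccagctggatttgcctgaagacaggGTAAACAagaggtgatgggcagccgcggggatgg
The second set is 81 bases around a TGTTTAC match (in capitals, each read 5′ to 3′ on the strand of the match) in partner anchors that the Runx1, Runx2 and Etv6 promoters contacted, all outside annotated exons. They lie at chr16:92684862-92684942 (minus strand), chr17:44501918-44501998 and chr17:44542891-44542971 (plus strand), and chr6:134039048-134039128 (plus strand).
Runx1 intronic anchor: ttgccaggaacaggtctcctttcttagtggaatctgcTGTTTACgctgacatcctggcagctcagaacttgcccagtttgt
Runx2 anchor in the 3′ part of the gene: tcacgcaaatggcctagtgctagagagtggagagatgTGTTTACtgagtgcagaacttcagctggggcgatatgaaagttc
Runx2 intronic anchor: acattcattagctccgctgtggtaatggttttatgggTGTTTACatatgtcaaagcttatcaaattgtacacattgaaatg
Etv6 intronic anchor: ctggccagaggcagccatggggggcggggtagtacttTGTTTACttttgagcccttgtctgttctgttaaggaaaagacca
The last is the single HNF4 string found among the 53 anchors at and inside the 8 genes, in an anchor in the body of Ets1 (chr9:32707088-32707170, minus strand).
Ets1 body anchor: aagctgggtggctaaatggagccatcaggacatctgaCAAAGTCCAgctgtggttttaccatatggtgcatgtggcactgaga
In the central 1000 bases of these 53 anchors, TGTTTAC occurred in 14, CAAAGTCCA in 0, TGTGGTT in 12 and CCGGAAG in 2. Over all 30542 anchors the same windows held them in 19.8%, 1.75%, 22.7% and 11%. Of the 14 anchors with TGTTTAC, 6 were among the 13 anchors of Etv6. These matches are a description of letters and do not show binding.

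With promoter and body loops counted together, Runx1 and Runx2 were among the most looped genes in every list, and Runx3 and Ets1 had few loops. Where 4 numbers stand together, the FOXA1 lists come before the HNF4G lists and, within a factor, liver mets comes before tumor. Runx1 had 67, 53, 42 and 42 loops, and Runx2 had 64, 52, 43 and 40. Among 15907 genes with loops the medians were 7, 6, 5 and 4, and Runx1 and Runx2 stood above at least 98.7% of these genes in each list. Body loops made up 36 of the 99 distinct Runx1 loops and 58 of the 97 of Runx2. Because body loops are counted, this rank can grow with gene length, and Runx1 and Runx2 held 11 and 13 anchors inside the gene. Promoter loops alone numbered 37, 29, 20 and 25 for Runx1 and 24, 19, 18 and 21 for Runx2. By that count Runx2 was below Ets2 in FOXA1 liver mets (29) and below Etv4 in FOXA1 tumor (24). Etv6, which encodes an ETS repressor, had 44, 42, 28 and 18 loops, and stood at the percentiles 97.4, 98.2, 96.9 and 90.7. Of its 78 distinct loops 50 were body loops, and by promoter loops alone (15, 12, 11 and 5) it had fewer than Ets2 and Etv4. Ets2, an activator that responds to MAPK signaling, had 29, 17, 12 and 17 loops. Etv4 and Etv5, PEA3-group factors that act downstream of growth factor receptors, had 21, 24, 14 and 15 loops and 12, 11, 8 and 7 loops. Ets1 had 2, 3, 4 and 5, and Runx3 had 1, 3, 2 and 1.

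**Figure D1:**
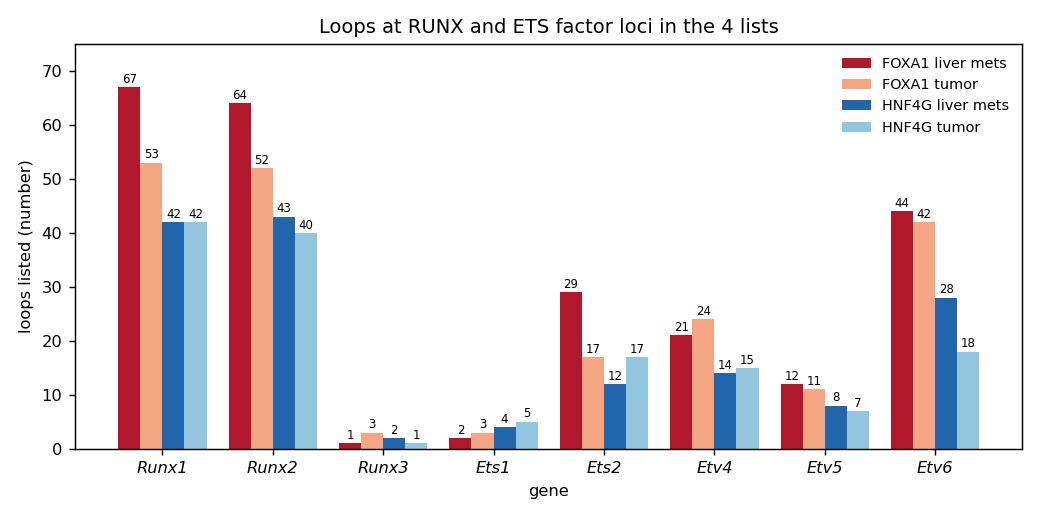
Number of loops listed (y axis) for each of the 8 genes (x axis) in the 4 lists (bar colors). Runx1 and Runx2 have the tallest bars in all 4 lists, and the Runx3 and Ets1 bars reach at most 5 loops.

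The number of loops was compared between the lines. Over the 8 genes, the liver mets line had 240 FOXA1 loops and the tumor line 205, which gave a ratio of 1.17 (95% interval 0.968 to 1.42). The HNF4G numbers, 153 and 145, gave a ratio of 1.06 (0.835 to 1.33). As shares of their lists these ratios were 0.970 (0.802 to 1.18) and 1.03 (0.816 to 1.30), so the genes followed the sizes of the lists, whose own ratios were 1.21 for FOXA1 and 1.02 for HNF4G. Of the 6 genes with at least 10 loops summed over the lines, 1 was 1.5-fold or more higher in liver mets for FOXA1 (Ets2) and 0 were lower, beside 25.7% higher and 7.89% lower among 10053 genes counted the same way. For HNF4G, 1 of 6 was 1.5-fold or more higher (Etv6) and 0 were lower, beside 16.2% and 18.1% of 7728 genes. These shares are close to the background and say nothing particular of the 8 genes. With 1 list per group, there is no replicate check of any of these differences.

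**Figure D2:**
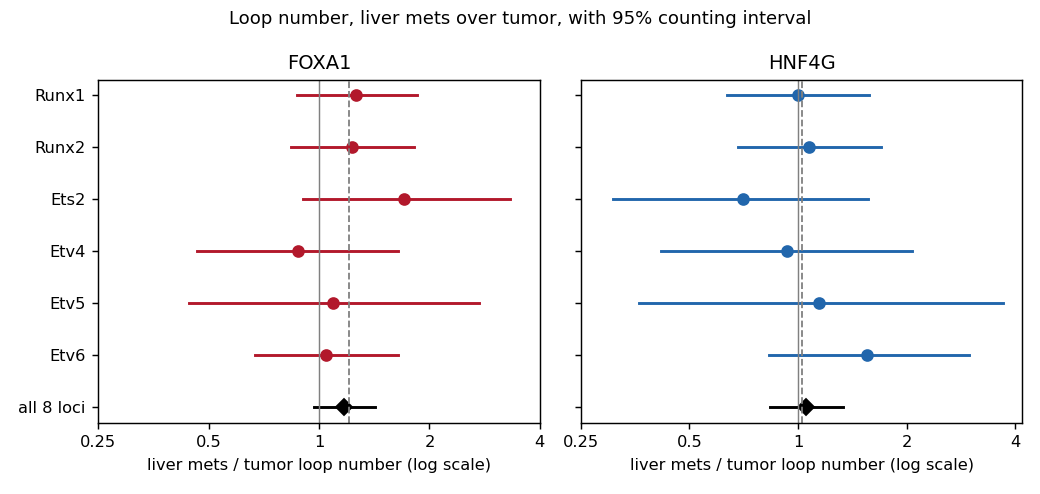
Ratio of loop numbers, liver mets over tumor (x axis, log scale), for FOXA1 (left) and HNF4G (right), with 95% counting intervals as lines. The solid gray line marks 1 and the dashed line the ratio of the list sizes (1.21 and 1.02), and every interval, also that of all 8 loci (black diamond), includes 1.

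Individual genes had wider intervals. For FOXA1 the ratio was 1.26 (0.869 to 1.85) for Runx1, 1.23 (0.840 to 1.81) for Runx2, 1.05 (0.671 to 1.64) for Etv6 and 0.875 (0.463 to 1.64) for Etv4. Ets2 had 29 FOXA1 loops in liver mets against 17 in tumor cells, a ratio of 1.71 (0.907 to 3.31), and 12 HNF4G loops against 17, a ratio of 0.706 (0.308 to 1.57). As a share of the lists the Ets2 ratio for FOXA1 was 1.41 and no longer past 1.5-fold, beside 11.6% of genes higher and 14.4% lower on that scale. For HNF4G, the 28 Etv6 loops of the liver mets line and the 18 of the tumor line gave a ratio of 1.56 (0.831 to 2.99) and of 1.52 as shares, beside 13.1% of genes higher and 18.3% lower by share. The ratio for HNF4G was 1.00 for Runx1, 1.08 for Runx2, 0.933 for Etv4 and 1.14 for Etv5. None of these intervals lay wholly on 1 side of 1.

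FOXA1 lists held more loops of these genes than HNF4G lists in both lines, by 1.57 (1.28 to 1.93) in liver mets and 1.41 (1.14 to 1.76) in tumor. As shares of the lists the ratios were 0.975 and 1.04. Etv6 in tumor cells had 42 FOXA1 and 18 HNF4G loops, a ratio of 2.33 (1.31 to 4.31) by number and 1.71 (0.963 to 3.16) by share. Ets2 in liver mets had 29 and 12, a ratio of 2.42 (1.2 to 5.20) by number and 1.5 by share. Both of these comparisons use a list that also enters the comparisons between lines.

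The share of loops found in several lists was largest at short span. Of the 415 loops, 8.43% (6.13 to 11.5) were in all 4 lists and 51.8% (47.0 to 56.6) were in 1 list only, beside 5.54% and 65.7% of all 181129 promoter loops. These shares rest on identical anchor pairs, and with anchors widened by 5 kb those of the 415 loops were 33.7% and 26.7%. The share in 1 list only was also 46.2% with the outermost start of each gene only and 46.8% for spans of 1 Mb or less. Membership depended on span, the distance between the midpoints of the anchors. Below 20 kb, 35.0% of loops were in all 4 lists (33.3% of all promoter loops) and 12.5% were in 1 only (15.4%). From 20 to 100 kb, 27.7% (20.2 to 36.6) were in 1 list only, beside 39.3%. From 100 to 500 kb, 3.97% (1.83 to 8.40) were in all 4 lists (2.14%) and 56.3% (48.3 to 64.0) in 1 only (69.2%). From 500 to 2000 kb, 83.9% (76.0 to 89.6) were in 1 only (91.0%). The share in 1 list only was thus below that of all promoter loops in each span range from 20 kb up. Body loops are part of this count but not of the promoter background. For the 265 promoter loops alone the share in 1 list only was 63.0% (57.1 to 68.6), an interval that includes the 65.7% of all promoter loops. By span it was 32.4% (19.6 to 48.5) from 20 to 100 kb, 57.0% (47.5 to 66.0) from 100 to 500 kb and 83.9% from 500 kb up, and the interval included the background in the first of these ranges.

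**Figure D3:**
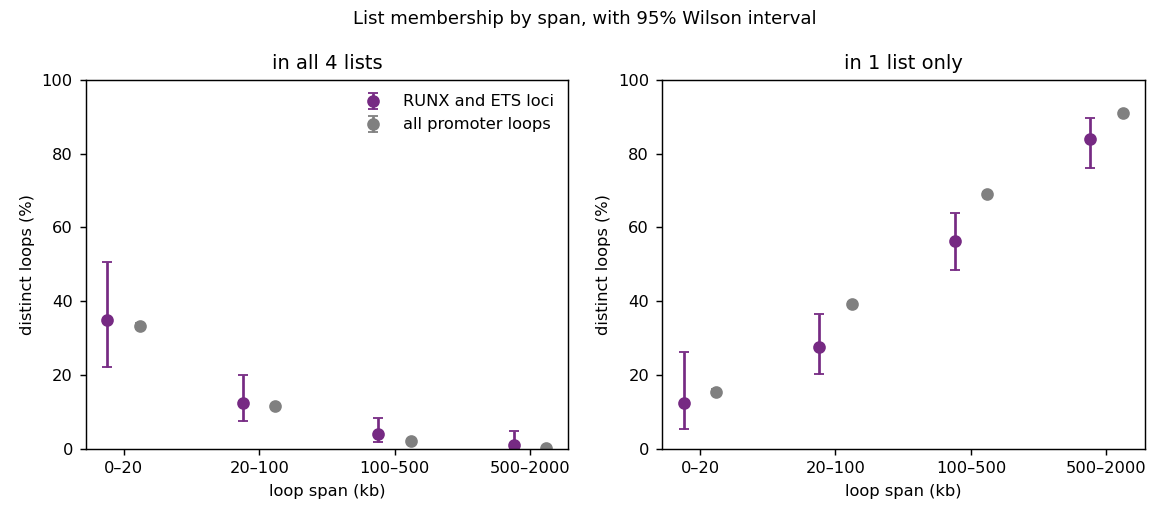
Share of distinct loops (y axis, %) in all 4 lists (left) and in 1 list only (right) by span (x axis, kb), for the RUNX and ETS loci (purple) and all promoter loops (gray), with 95% Wilson intervals. At 100 to 500 kb, 56.3% of the loops of these loci and 69.2% of all promoter loops were in 1 list only.

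Single-list loops were also counted by gene. Of the 43 Runx2 loops of 100 to 500 kb, of which 15 were promoter loops and the others body loops, 13 were in 1 list only, against 21 of 32 for Runx1, 20 of 26 for Etv4, 15 of 25 for Etv6, 9 of 12 for Etv5 and 6 of 12 for Ets2. The loops of Etv4, Etv5 and Ets2 at this span were all promoter loops. From 500 to 2000 kb the order was another, with 17 of 19 for Runx2, 17 of 24 for Runx1 and 10 of 13 for Etv5. Only 1 of the 61 Etv4 loops and none of the 28 Etv5 loops were in all 4 lists, whereas 15 of 99 Runx1 loops and 12 of 97 Runx2 loops were. Loops confined to both liver mets lists numbered 24 (5.78%, 3.92 to 8.46) and loops confined to both tumor lists 12 (2.89%), beside 3.64% and 2.48% of all loops. Of the 24, 11 belonged to Runx2, 6 to Etv6 and 4 to Runx1. Loops in both FOXA1 lists only numbered 34 (8.19%, 5.92 to 11.2) and loops in both HNF4G lists only 10 (2.41%), beside 5.88% and 1.81%. Etv6 had 11 of the 34, Runx1 8 and Runx2 7. The background shares of these patterns are over loops of every span and kind and were not matched to the loops of these genes. List membership depended on span, and whether span accounts for these differences was not tested.

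Loops with a value of 2 or more, above both tied values of every list, were more frequent at these genes than in the lists as a whole for FOXA1. They made up 18.3% (13.9 to 23.7) of FOXA1 liver mets loops and 14.1% (10.0 to 19.6) of FOXA1 tumor loops, beside 9.33% and 7.84% of the lists. For HNF4G they were 9.15% (5.53 to 14.8) in liver mets and 6.90% (3.79 to 12.2) in tumor, beside 7.21% and 7.32%. Between 100 and 500 kb the shares were 37.6% (28.1 to 48.3) and 30.3% (21.1 to 41.3) for FOXA1, beside 16.3% and 14.9%, and 25% (14.9 to 38.8) and 15% (7.06 to 29.1) for HNF4G, beside 14% and 13.9%. Runx2 supplied 19 of the 44 such FOXA1 liver mets loops and 12 of 29 in FOXA1 tumor, and Runx1 supplied 14 and 8. The Runx3 and Ets1 loops had no value of 2 or more.

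The median span of the loops was 123 kb (97.6 to 161), 112 kb (75.8 to 143), 81.5 kb (57.7 to 130) and 95.5 kb (75.4 to 139) in the 4 lists, beside 164, 141, 114 and 131 kb for all loops. Only the FOXA1 liver mets interval lay below the median of its list. A body loop cannot be longer than its gene. Promoter loops had a median span of 285 kb for Runx1, 497 kb for Runx2, 446 kb for Etv6, 433 kb for Etv4, 492 kb for Etv5, 141 kb for Ets2 and 65.9 kb for Ets1. Body loops had medians of 31.7 kb for Runx1, 95.8 kb for Runx2 and 51.9 kb for Etv6.

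Runx1 (chr16:92601466-92826149, minus strand) is a regulator of blood stem cells that is also active in epithelia. Its proximal promoter anchor (chr16:92695941-92699056) had 33 loops, with 22, 19, 11 and 14 in the 4 lists, and its distal promoter anchor (chr16:92823331-92827210) had 22, with 14, 9, 8 and 7. A second distal anchor (chr16:92827798-92829217), within 2 kb of distal starts, had 9 loops, with 2, 2, 2 and 5. The loop between the promoters, 128 kb long, was in all 4 lists with values of 0.922, 2.20, 1.53 and 1.45. The proximal promoter was joined in all lists to an intergenic anchor 596 kb upstream (chr16:93291936-93294768), with values of 1.85, 3.74, 1.99 and 3.91, and to the intronic anchor 11.7 kb downstream (chr16:92683613-92687980) shown above, with values of 7.40, 2.26, 0.358 and 2.01. All 4 lists held these 3 loops. The loop between the proximal promoter and an anchor 207 kb upstream (chr16:92903066-92905634) was in 3 lists, with a value of 2.94 for FOXA1 in tumor cells and of 1.78 and 5.10 for HNF4G, and FOXA1 liver mets was the list without it. The same upstream anchor was joined to the distal promoter anchor, 79.1 kb away, in both liver mets lists only (0.311 and 0.438). It was joined to the second distal anchor, 75.8 kb away, in both tumor lists only (0.123 and 0.510). The distal anchors together thus reached it in every list.

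Inside Runx1, an anchor 204 kb from the first start (chr16:92619482-92625392) had 11 loops of the gene, 6 of them in all 4 lists. It was singled out after its values were seen. Its loop to the intronic anchor at chr16:92683613-92687980, 63.4 kb away, had values of 10.4, 1.88, 0.146 and 0.566, the highest Runx1 value in the FOXA1 liver mets list. In both liver mets lists only, the distal promoter anchor was joined to an anchor at the Gm49725 start 710 kb upstream. The second distal anchor was joined to the same Gm49725 anchor in HNF4G tumor only (1.99). In both tumor lists only, the proximal promoter was joined to anchors 87.8 kb (at Gm26626) and 65.2 kb downstream, inside the gene. The distal promoter anchor was joined to the same Gm26626 anchor in both FOXA1 lists and HNF4G liver mets. Another anchor at Gm26626, 81.4 kb downstream, was joined to the proximal promoter in FOXA1 liver mets and HNF4G tumor (1.21 and 0.171). Contact between Runx1 promoters and Gm26626 was thus not confined to the tumor lists. In both FOXA1 lists only, the proximal promoter was joined to the 1700029J03Rik start 758 kb upstream, with values of 3.79 and 1.91. The distal promoter anchor was joined to the same 1700029J03Rik anchor in both FOXA1 lists and HNF4G liver mets (1.84, 1.91 and 1.99). Another anchor inside 1700029J03Rik was joined to the proximal promoter in FOXA1 tumor and HNF4G liver mets (1.91 and 1.99). Of the 63 promoter loops of Runx1, 17 (27.0%, 17.6 to 39.0) ended at another gene's promoter, and the start of Clic6, a chloride channel gene that neighbors it, was reached in 2 loops, 1 in each liver mets list. Another anchor inside Clic6 (chr16:92491828-92493323) was joined to the proximal promoter in both FOXA1 lists only (2.72 and 1.61). This anchor was joined to the second distal anchor in HNF4G tumor only (1.92).

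Runx2 (chr17:44495987-44814797, minus strand), the master regulator of bone formation, had 1 promoter anchor (chr17:44733793-44739225), at the proximal promoter and shared with the antisense gene Runx2os1. The nearest anchor to its distal start was 36768 bp away. The promoter anchor had 39 loops, with 24, 19, 18 and 21 in the lists. Of the 52 anchors within 1 Mb, it was joined to 40.4%, 32.7%, 30.8% and 36.5%, beside a median over all promoter anchors of 14.1%, 12.2%, 9.21% and 8.93%. It was joined in all 4 lists to the anchor in the 3′ part of the gene shown above (chr17:44499592-44503321), 235 kb away, with values of 4.69, 3.10, 3.29 and 10.6. It was also joined to an intergenic anchor 278 kb downstream, beyond the gene end (chr17:44457157-44458993), with values of 7.33, 3.24, 5.61 and 1.89. A nearer anchor, 7.57 kb away, had values of 1.87, 1.06, 1.99 and 1.41.

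Some of the strongest Runx2 loops were missing from 1 list. The loop to chr17:44475426-44480989, 258 kb downstream, had 2.98 and 10.1 in the FOXA1 lists and 1.86 in HNF4G tumor, and was not in HNF4G liver mets. The loop to the intronic anchor chr17:44541497-44544253, 194 kb away, had 8.65, 2.91 and 1.77 and was not in HNF4G tumor. The body loop between chr17:44499592-44503321 and chr17:44689901-44691457, 189 kb, had 12.8 and 4.61 for FOXA1 and 1.72 in HNF4G tumor. These 3 loops were named for their values. Of the 11 promoter partners 500 kb or more upstream of Runx2, 5, 2, 2 and 4 were listed, and they included anchors at Vegfa, an angiogenic growth factor gene, and at Nfkbie, an NF-kB inhibitor gene, each in 1 list. The Aars2 start, 770 kb upstream, was joined in both liver mets lists only, and an anchor inside F630040K05Rik, 1036 kb upstream, in both tumor lists only. A Clic5 start, 497 kb downstream, was joined in both HNF4G lists only (1.97 and 1.98). Another anchor inside Clic5, 475 kb downstream, was joined in both FOXA1 lists only (1.82 and 1.89). The Supt3 start, which lies inside Runx2 and encodes a SAGA complex subunit, was joined in all 4 lists at values of at most 0.458.

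Runx3 (chr4:135120652-135177990, plus strand), a factor of T cells and gastrointestinal epithelium, had no promoter anchor and 3 body loops. Their spans ran from 5.51 to 27.3 kb, and the highest value was 0.566. Its neighbors Clic4 and Rcan3 had 45 and 33 loops of their own, and 0 of them ran from a Clic4 or Rcan3 promoter anchor to 1 of the 3 anchors inside Runx3. Those 3 anchors had 19, 20 and 17 loops of any kind.

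**Figure D4:**
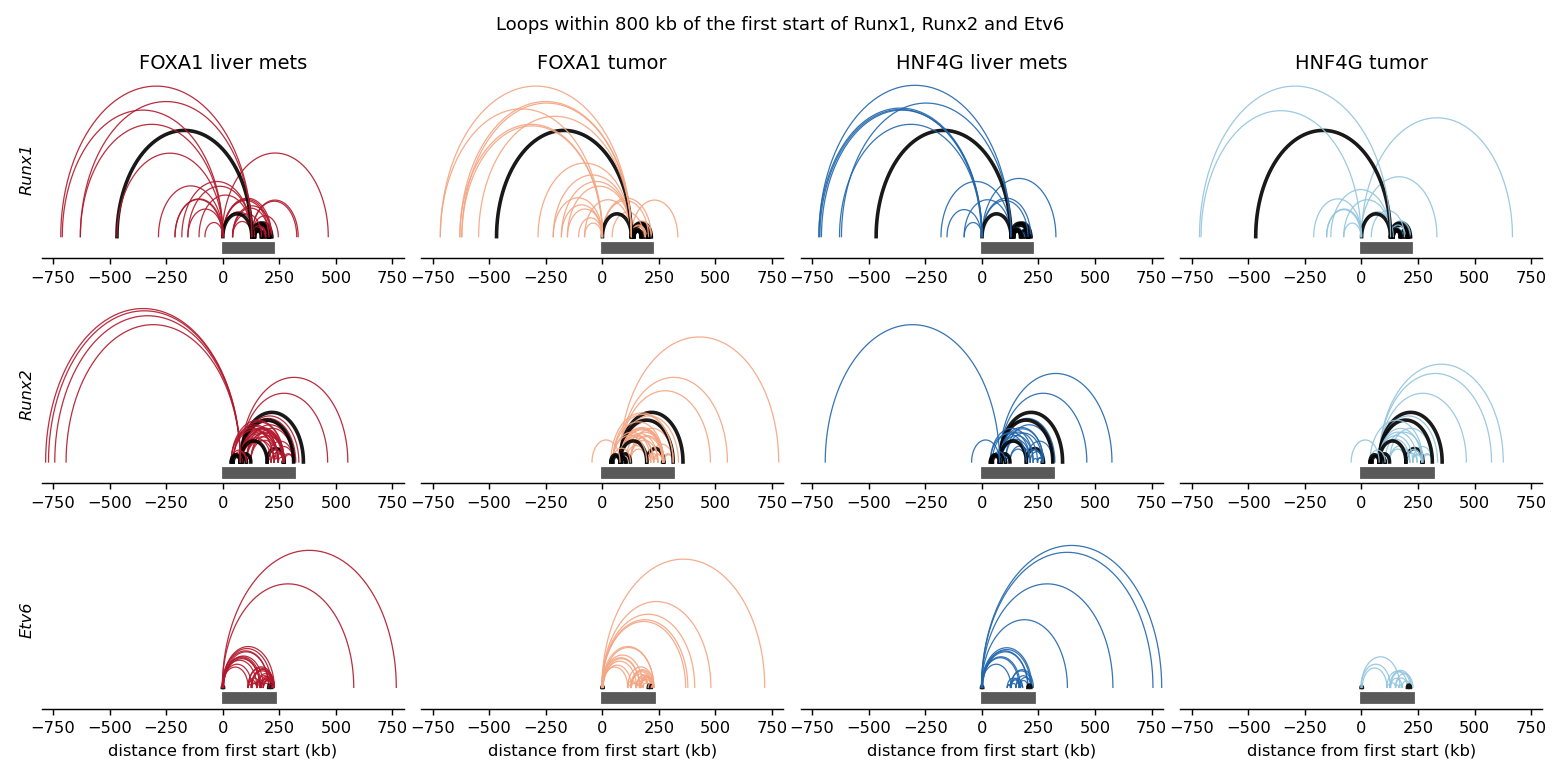
Loops of Runx1, Runx2 and Etv6 with both anchors within 800 kb of the first start (x axis, distance in kb, positive in the direction of transcription), in the 4 lists. Arcs join anchor midpoints, black arcs are loops in all 4 lists and the gray bar is the gene. The black arc of Runx1 reaching upstream is the 596 kb loop, and no Etv6 arc runs upstream.

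Ets2 (chr16:95702075-95721051, plus strand) had 40 loops, all promoter loops. Its main anchor (chr16:95698505-95705424) was joined to 78.9%, 57.9%, 42.1% and 52.6% of the 19 anchors within 1 Mb, above the medians of all promoter anchors given for Runx2. Loops in all 4 lists joined it to the start of 1600002D24Rik 143 kb downstream (3.39, 1.36, 4.64 and 2.67), to an intergenic anchor 18.0 kb upstream (1.87, 2.81, 1.32 and 5.10) and to another 27.3 kb upstream (1.42, 0.292, 0.856 and 0.465). These loops lay on both sides of the gene. In both FOXA1 lists only, it was joined to an anchor 123 kb downstream, with 3.92 and 3.53, and to Chaf1b, a chromatin assembly gene, 1818 kb upstream. In both liver mets lists only, it was joined to the Wrb start 443 kb downstream, with 1.79 and 1.96. Loops from both Ets2 anchors to partners less than 500 kb downstream numbered 12, 6, 5 and 5 in the lists, and those to partners 500 kb or more upstream numbered 3, 1, 0 and 5. The starts of Dop1b and Hlcs, which lie between Ets2 and Runx1, were each reached by single-list loops from both genes. The neighboring ETS gene Erg had no anchor at a start.

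Ets1 (chr9:32636221-32757820, plus strand) had a promoter anchor only at its internal starts (chr9:32694079-32696765), and its first start was 5376 bp from the nearest anchor. The loop in all 4 lists joined this anchor to the start of Gm27240, 14.9 kb downstream, with low values of 0.518, 0.122, 0.375 and 0.169. The 2 loops that ran 500 kb or more upstream were in the HNF4G tumor list only. Fli1, an ETS gene next to Ets1, had no anchor at a start.

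Etv4 (chr11:101769742-101785371, minus strand) had the highest share of promoter partners of the 7 genes with promoter loops. Of its 61 loops, 41 (67.2%, 54.7 to 77.7) ended at the promoter of another gene, beside 54.3% over every promoter anchor of every loop and 42.6% (36.8 to 48.7) for the 265 promoter loops of these genes. Within the reach of 2000 kb, 61.9% of the anchors around Etv4 lay at other promoters, beside 40.4% around Runx1 and 32.1% around Etv6. The Etv4 share was thus near that of the anchors around it. Its main anchor was joined to 11.8%, 11.8%, 11.8% and 8.18% of the 110 anchors within 1 Mb. The only loop in all 4 lists joined it to the U2 snRNA gene Rnu2-10, 126 kb downstream, with values of 0.879, 1.28, 1.47 and 1.47. In both liver mets lists only it was joined to the start of Ubtf, a factor of ribosomal RNA transcription, 535 kb upstream. Another anchor inside Ubtf, 522 kb upstream, was joined in FOXA1 tumor only (1.90). In both tumor lists only, the second Etv4 anchor was joined to BC030867. In both HNF4G lists only, the main anchor was joined to a Rundc3a start, 616 kb upstream, and in both FOXA1 lists only to an anchor 278 kb upstream (1.61 and 1.77). Another anchor at Rundc3a, 609 kb upstream, was joined in FOXA1 liver mets only (1.83). The second Etv4 anchor reached the partner of the 278 kb loop in HNF4G tumor only (1.90).

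Etv5 (chr16:22381309-22439719, minus strand) had 27 promoter loops, of which 12 (44.4%, 27.6 to 62.7) ended at another promoter. None was in all 4 lists. In both FOXA1 lists only, it was joined to an anchor inside St6gal1, a sialyltransferase gene, 879 kb upstream (1.87 and 3.87). The other loop in both FOXA1 lists only ran to an anchor at Tbccd1, 404 kb upstream. A neighboring anchor at Tbccd1, 399 kb upstream, was joined in FOXA1 tumor and HNF4G liver mets (1.85 and 1.95). In both HNF4G lists only, it was joined to a St6gal1 start, 833 kb upstream. The other loop in both HNF4G lists only ran to an anchor inside Igf2bp2, which encodes an RNA-binding protein, 332 kb downstream (1.92 and 1.91). In both tumor lists only, it was joined to an anchor 10.9 kb into the gene. Starts of Igf2bp2 were reached in 2 loops, each in FOXA1 liver mets only, and another anchor inside this gene, 342 kb downstream, in HNF4G tumor only.

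Etv6 (chr6:134035700-134270158, plus strand) had 28 promoter loops, all of them downstream. The nearest anchor upstream of its promoter anchor (chr6:134032096-134036315) was 692 kb away, and within 2 Mb there were 3 anchors upstream and 78 downstream. The promoter loop in all 4 lists ran to the intronic anchor 5.31 kb downstream shown above, with 1.07, 1.37, 0.130 and 0.364. The promoter was joined to chr6:134199326-134201735, 166 kb downstream, with 2.35, 1.52 and 9.51, and this loop was not in HNF4G tumor. Promoter loops numbered 15, 12, 11 and 5. Partners outside the gene and less than 500 kb beyond it numbered 1, 5, 2 and 0. In both liver mets lists only, it was joined to anchors 581 kb and 205 kb downstream, and the longest loop in at least 2 lists ran 1258 kb.

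The largest contrast between the factors at Etv6 was at the anchor nearest its 3′ end (chr6:134262106-134264548), which was singled out after its values were seen. Its loop to the promoter, 229 kb, was in both FOXA1 lists only, with values of 2.77 and 4.90. Of the 12 loops of Etv6 at this anchor, 10, 9, 1 and 1 were in the 4 lists. Over all loops at the anchor the numbers were 21, 11, 3 and 5, a sum of 32 for FOXA1 and 8 for HNF4G, a ratio of 4.0. The ratio of the summed list sizes was 1.49, and the median over the 13 anchors of Etv6 was 1.88. This anchor held no TGTTTAC, CAAAGTCCA or TGTGGTT and 1 CCGGAAG. It was chosen for its contrast, so the ratio is a description.

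**Figure D5:**
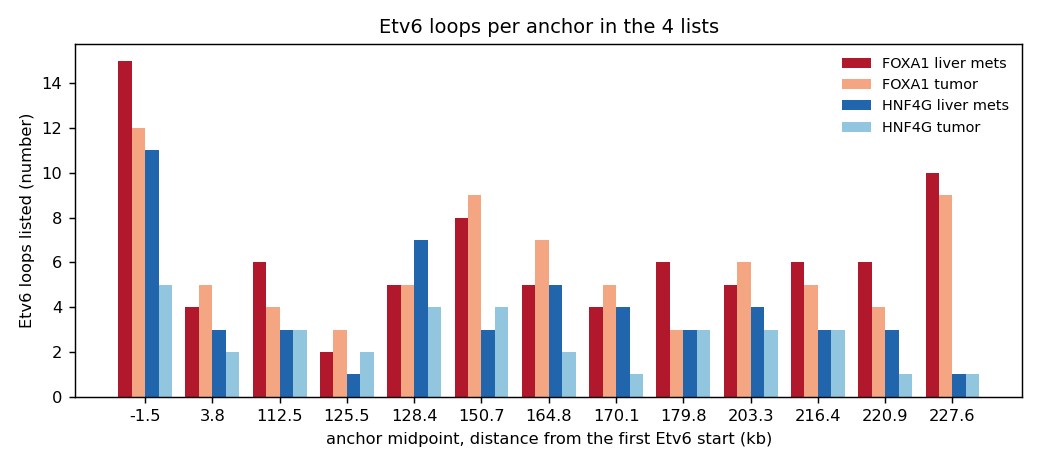
Etv6 loops listed (y axis) at each of its 13 anchors (x axis, distance of the anchor midpoint from the first start in kb) in the 4 lists. At 227.6 kb the FOXA1 bars reach 10 and 9 and the HNF4G bars 1 and 1.

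Among 8 genes for RUNX partners and corepressors, 6 had loops, beside 15907 of all 55450 annotated genes of any type. Tle3, a Groucho corepressor, had 52, 39, 38 and 28, and Cbfb, the RUNX partner subunit, had 11, 5, 4 and 3. Among those with enough loops, 1 of 4 was 1.5-fold or more higher in liver mets for FOXA1 (Cbfb) and 0 were lower, and for HNF4G 0 of 3 were higher and 1 was lower (Tle2, 15 and 24 loops). Among 21 other ETS genes, 12 had loops, beside the same number of all genes. Ehf (40, 33, 20 and 23), Spdef (39, 26, 25 and 16) and Elf3 (21, 25, 12 and 13) were among them. The 9 with none were Elf5, Elk1, Etv2, Etv3, Erg, Fli1, Spi1, Spib and Spic. Of those counted, 2 of 7 were higher (Spdef and Elk3) and 0 lower for FOXA1, and 2 of 8 were higher (Elf2 and Spdef) and 1 lower (Fev) for HNF4G. The shares past the fold among all genes are those given above for the 8 genes.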

How the data were processed

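Hi-ChIP libraries for FOXA1 and HNF4G from a KPC tumor line and a liver mets line (8 samples, 2 replicates per group) were processed by the authors with HiC-Pro 3.1.0, per the labels, which aligned reads to mm10, removed duplicates and assigned reads to DpnII fragments, and loops were then called with hichipper. How the replicates were joined, where the anchors came from and the minimum of paired reads were not given in the sources used here. Each group had 1 loop list deposited by the authors, giving the anchors of each loop, a number and a display score. That deposited value has no name and was read as −log10 of an adjusted p from the values alone, with long runs of ties. The deposited score only restated the value, rounded to whole steps, and was not used. No column of per-sample values was left unmapped (0).

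Gene starts came from GENCODE M21 on GRCm38. Anchors within 2 kb of a start were promoter anchors, and coordinates count from 1. A loop was the same in several lists when its anchor pair was identical. Loop numbers were compared as ratios, with exact 95% intervals (Clopper-Pearson, conditional on their sum), and shares had Wilson intervals. With 1 list per group no test was run, and genes counted as past the fold had a ratio of 1.5 or more with at least 10 loops summed over the lines compared. Read depth is unknown, so the precision it gives is unknown as well, and intervals treat loops as independent. The functions were checked on simulated lists of known membership.

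The members and gene lists were chosen with earlier results of these data known. The loops named were, for each gene, up to 3 partners in all 4 lists with the highest lowest value, up to 2 in both lists of 1 line only, up to 2 in both lists of 1 factor only, and the longest loop in 2 or more lists. The text says where others were named for their values. Strings were matched on both strands of the RefSeq sequence, where 6 of the 8 genes had a promoter window. Calculations used Python 3.11.15, pandas 2.3.3, numpy 2.4.6, scipy 1.17.1 and matplotlib 3.10.9. Alternatives were other promoter windows, the outermost start only, promoter loops only, spans of 1 Mb or less, minimum values, division by list size and anchors widened by 5 kb.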

Additional observations from a re-analysis of the deposited data

Results flagged for a closer look

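Ets2 loops moved in opposite directions between the lines for the 2 factors. Liver mets over tumor gave 1.71 for FOXA1 (29 and 17 loops) and 0.706 for HNF4G (12 and 17 loops). With 1 list per group the difference was not tested, and the intervals of both ratios include 1.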

How the results depend on the processing

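No paired analysis was possible because each group had 1 list with no value per replicate, so no replicate could be left out either. The ratio of loop numbers over the 8 genes, 1.17 for FOXA1, was 1.52 (0.928 to 2.51) at values of 2 or more and 0.970 when divided by list size. For HNF4G, 1.06 became 1.40 (0.578 to 3.52) at values of 2 or more and 0.915 for promoter loops only. Leaving out 1 gene at a time, chosen after seeing the data, gave 1.12 to 1.21 for FOXA1 and, for HNF4G, 0.984 (without Etv6) to 1.10 (without Ets2). Each of these intervals includes 1. The share of loops in 1 list only, 51.8%, was 46.2% with the outermost start only, 63.0% for promoter loops only, 46.8% at spans of 1 Mb or less, 70.4% at values of 2 or more, 68.2% at an adjusted p of 0.05 or less and 26.7% with anchors widened by 5 kb. The share in all 4 lists, 8.43%, was 1.41%, 2.19% and 33.7% in the last 3 of these. Widening joins neighboring anchors, so it raises sharing by construction. The median span of 168 kb was 136 kb with the outermost start only, 386 kb for promoter loops only, 142 kb at 1 Mb or less and 367 kb at an adjusted p of 0.05 or less. The share with a partner at another promoter, 42.6%, was 29.8% with the start inside the anchor, 33.1% with the outermost start only and 24.0% at values of 2 or more. Other causes of these moves were not tested. Sequencing depth, which limits how many loops can be found, is unknown.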
